A study of Mus musculus with 48 samples.

Results

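Ribosomal protein pseudogenes are copies of ribosomal protein genes that lie elsewhere in the genome, and each bears the symbol of its parent gene followed by -ps. They were taken as every row of the gene-wise read count table whose symbol starts with Rpl or Rps and contains -ps. This gave 274 of the 48440 rows, 170 with an Rpl symbol and 104 with an Rps symbol, and Rpl3-ps1 was among them. The symbols fall into 60 stems with 1 to 23 pseudogenes each. A parent gene of the same stem had a row for 59 stems and 273 pseudogenes, the exception being Rpl48-ps1. By the biotypes in the table, 255 were processed pseudogenes, 3 were transcribed processed pseudogenes and 16 were annotated as protein coding, among them Rpl9-ps6, Rpl10-ps3 and Rps12-ps3. The X chromosome held 35 of them, the most of any chromosome, and chromosome 7 held 22.

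The study asked how prenatal stress (PS) and serotonin transporter (5-HTT, gene Slc6a4) deficiency relate to social behaviour and hippocampal gene expression in adult female mice. RNA sequencing was done on 48 libraries, each from both hippocampi of 1 female C57BL/6 mouse aged 3 months. Wildtype C57BL6/J dams had been mated with males carrying 1 targeted Slc6a4 allele, so that 5-Htt+/+ and 5-Htt+/- mice were littermates. Control (C) offspring came from dams that were not stressed, and PS offspring from dams restrained in 3 sessions per day between embryonic days 13 and 17. PS offspring were divided afterwards by their own behaviour in a 3-chamber sociability test into socially affected (SA, labelled susceptible) and socially unaffected (SU, labelled resilient) mice, so that these groups were not assigned at random. There were 8 libraries each for 5-Htt+/+ C, SA and SU, and 7, 8 and 9 libraries for 5-Htt+/- C, SA and SU. The labels do not give the litter, and p-values therefore measure the spread between these animals, some of which may have shared a dam.

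Ribosomal protein genes encode the structural proteins of the small (Rps) and large (Rpl) ribosomal subunits and are among the most highly expressed genes of every cell. Because their messenger RNAs are abundant and short, they have repeatedly been copied back into the genome by retrotransposition. Such a copy lacks introns, usually lacks its own promoter, and resembles the spliced parent messenger RNA, so that a short read from the parent can match the copy equally well.

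Libraries held total counts of 16488405 to 38213754 (median 24125647.5), with reads on 32705 to 36358 genes. All 8 hippocampal marker genes had reads in every library, and their summed level was 475 to 658 CPM, that is, counts scaled to a common library size. The 10 choroid plexus markers summed to between 28.2 and 948 CPM and the 6 oligodendrocyte markers to between 1826 and 3779 CPM, the highest of these in 5-Htt+/- C. Slc6a4 had more reads under the label with the targeted allele. It had 0 to 0.26 CPM in the libraries labelled 5-Htt+/+ and 12.8 to 17.0 CPM in those labelled 5-Htt+/- (log2 fold change 6.72, adjusted p = 1.78e-52, edgeR quasi-likelihood test). The source of these reads was not tested, and they do not by themselves show whether the labels are right. The genotype groups are therefore called by their labels throughout.

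The resemblance is shown by the opening 120 coding bases of 3 parent genes and 7 of their pseudogenes, chosen because the results below turn on them. They are written 5′ to 3′ in the sense of the parent from the start codon, as given in the GENCODE M21 transcripts of GRCm38. Capitals mark bases that differ from the parent. Rpl3, a core protein of the large subunit, lies at chr15:80082466-80083326, minus strand, where the range spans introns. Rpl3-ps1 (chrX:13202572-13202691, plus strand) differed at a single base, C57A, counted from the A of the start codon with the parent base given before the position. Rpl3-ps2 (chrX:74170653-74170772, plus strand) did not differ over this stretch.
Rpl3: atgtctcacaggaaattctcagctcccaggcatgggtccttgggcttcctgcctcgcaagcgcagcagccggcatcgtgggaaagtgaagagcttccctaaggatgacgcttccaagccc
Rpl3-ps1: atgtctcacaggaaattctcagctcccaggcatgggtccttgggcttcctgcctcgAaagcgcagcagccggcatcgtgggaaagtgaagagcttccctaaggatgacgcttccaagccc
Rpl3-ps2: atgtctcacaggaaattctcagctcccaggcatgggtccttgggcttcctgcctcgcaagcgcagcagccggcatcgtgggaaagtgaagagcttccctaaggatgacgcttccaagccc

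Rps12, a small subunit protein and the stem with the most pseudogenes, lies at chr10:23786775-23787007, minus strand, again across introns. Rps12-ps3 (chr19:59322371-59322490, plus strand) was identical to it here. Rps12-ps1 (chrX:103489517-103489636, plus strand) carried G66C, C84G and G107T. Rps12-ps6 (chrX:124350004-124350123, minus strand) carried 6 differences, namely G10A, T21A, C45G, C72A, C97T and A103C.
Rps12: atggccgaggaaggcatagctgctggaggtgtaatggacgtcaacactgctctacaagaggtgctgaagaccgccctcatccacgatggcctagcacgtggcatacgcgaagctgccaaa
Rps12-ps3: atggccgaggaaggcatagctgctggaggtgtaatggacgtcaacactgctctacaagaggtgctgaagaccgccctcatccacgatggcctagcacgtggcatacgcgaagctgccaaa
Rps12-ps1: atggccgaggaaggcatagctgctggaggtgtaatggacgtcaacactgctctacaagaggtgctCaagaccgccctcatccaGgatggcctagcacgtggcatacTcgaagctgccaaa
Rps12-ps6: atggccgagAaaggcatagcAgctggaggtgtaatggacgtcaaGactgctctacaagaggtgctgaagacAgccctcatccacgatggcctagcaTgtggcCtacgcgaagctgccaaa

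Rps15a, another small subunit protein, lies at chr7:118115122-118115241, minus strand. Its pseudogenes Rps15a-ps5 (chr5:105797594-105797713, minus strand) and Rps15a-ps2 (chr19:28742432-28742551, minus strand) were among the pseudogenes with the least steady count relative to the parent. Rps15a-ps5 carried C31T and A82T, and Rps15a-ps2 carried G24A, A87G, C106T and C111T.
Rps15a: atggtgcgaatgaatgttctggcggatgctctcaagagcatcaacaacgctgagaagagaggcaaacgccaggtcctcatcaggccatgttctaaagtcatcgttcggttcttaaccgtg
Rps15a-ps5: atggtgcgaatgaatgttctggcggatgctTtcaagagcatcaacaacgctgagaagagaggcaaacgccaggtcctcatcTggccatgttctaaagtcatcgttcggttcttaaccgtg
Rps15a-ps2: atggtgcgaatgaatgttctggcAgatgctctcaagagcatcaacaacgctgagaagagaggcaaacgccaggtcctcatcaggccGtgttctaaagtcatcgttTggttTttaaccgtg

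The pseudogenes took between 0.444% and 0.668% of all counts (median 0.508%). For every 100 counts on the 87 ribosomal protein genes of the list, 78.3 to 82.7 fell on the pseudogenes. Whether a read was counted on more than 1 row is not stated, so these are shares of counts and not of distinct reads. Between 204 and 243 of the 274 had at least 1 read in a given library, and 183 had reads in every library. The median count over the 48 libraries was at least 1000 for 39 pseudogenes, 100 to 999 for 92, 10 to 99 for 49 and under 10 for 94. For 47 the median was 0, and Rpl23a-ps8 had no read in any library. The count minimum of 5 reads in 3 libraries kept 205 pseudogenes for testing and left out 69. Fewer cells of a type and less RNA per cell cannot be told apart in these bulk samples.

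The 10 pseudogenes with the highest counts came from 6 stems. Rpl3-ps1 led with a median of 6330.5 reads (3702 to 10457), followed by Rpl3-ps2 with 4985 reads (2824 to 7956). Rps6-ps4, a copy of the small subunit protein whose phosphorylation follows mTOR signalling, had a median of 3593.5 reads. The large subunit copies Rpl9-ps6 and Rpl9-ps4 had 3120.5 and 2931 reads, and Rpl10-ps3, Rpl10-ps1 and Rpl10-ps6 had 3113.5, 3110 and 3045 reads. Rpsa-ps10, a copy of the small subunit protein also known as the laminin receptor, had 2771.5 reads and Rpl13-ps6 had 2600.5 reads. These counts are raw and are not corrected for length.

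Set against the parent gene in the same library, the pseudogenes ranged from no reads to nearly the parent's own count. The median over 273 pseudogenes was 6.58% of the parent count. In 17 the pseudogene count exceeded 90% of the parent count, in 57 it exceeded 50%, in 67 it lay between 10% and 50%, in 56 between 1% and 10%, and in 93 below 1%. Rpl10-ps3 reached 98.6% of Rpl10 (97.2% to 100.1% over libraries) and Rps23-ps1 reached 98.2% of Rps23 (97.2% to 99.3%). Rps6-ps4 reached 97.1% of Rps6, Rpl9-ps6 95.2% of Rpl9, Rpl9-ps4 89.9% of Rpl9, Rpl13-ps6 86.2% of Rpl13 and Rpsa-ps10 63.2% of Rpsa. Rpl7a-ps12 was the only pseudogene above its parent in most libraries, with 130.9% of the Rpl7a count (84.2% to 156.8%) and more reads than Rpl7a in 47 of 48 libraries. It shares exonic positions with the gene Gm6472, whose part in this count was not tested. Rpl10-ps3 exceeded Rpl10 in 1 library.

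**Figure D1:**
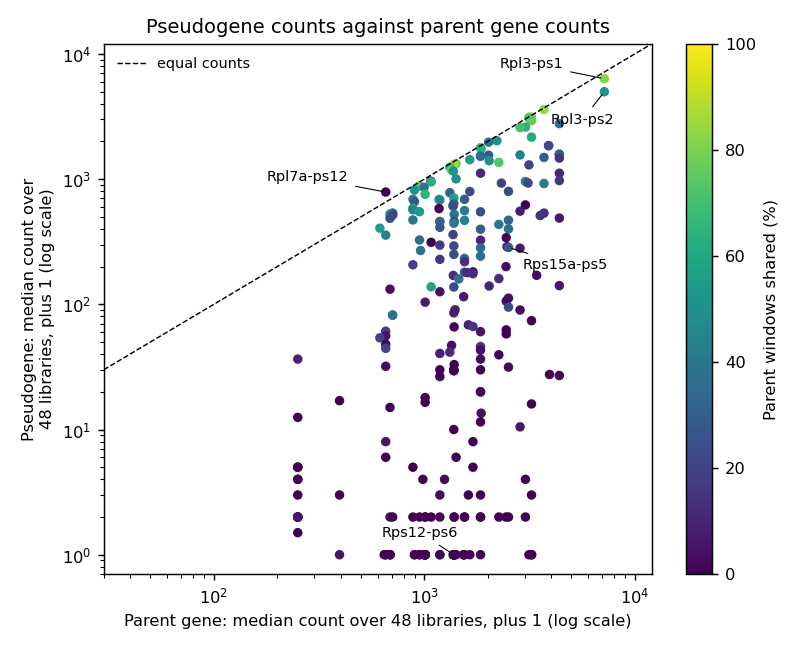
Median count of each pseudogene (vertical axis, log scale) against the median count of its parent gene (horizontal axis, log scale) over the 48 libraries, with 1 added to each. The most abundant pseudogenes lie below equality, many of them close to it, as Rpl3-ps1 with 6330.5 reads does. Rpl3-ps2 and Rpsa-ps10 lie farther below it, and 47 pseudogenes lie at a median of 0.

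The share of the parent count followed how much of the parent sequence a pseudogene holds. Each parent's shortest transcript with a consensus coding sequence was cut into all windows of 50 bases, the read length, and windows found in at most 10 annotated genes were counted in each pseudogene. Over the 271 pseudogenes with such windows, the share of windows held and the percentage of the parent count had a Spearman correlation of 0.874 and a Pearson correlation of 0.852. This is a correlation across genes that share reads and libraries, and it is given as a description. With windows counted regardless of how many genes hold them, the Spearman correlation was 0.769, and with the percentage of identical aligned bases it was 0.786.

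Of the 271, 89 held no such window and had a median of 0.035% of the parent count. The 40 that held up to 5% of the windows had a median of 1.55%, the 49 with 5 to 20% had 10.1%, the 60 with 20 to 50% had 39.0%, and the 33 with over 50% had 88.3%. The classes overlapped. In the class without shared windows Rpl7a-ps12 stood at 130.9%, and among those with over 50% Rpl36a-ps1 stood lowest at 12.6%. Of the 89, 34 shared windows with their parent that were all present in more than 10 genes, and these 34 had a median count of 1 read and a median of 0.255% of the parent count. Rpl39-ps (parent Rpl39, a short large subunit protein) departed from the classes, with 9.24% of the windows of Rpl39 and 90.2% of its count.

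**Figure D2:**
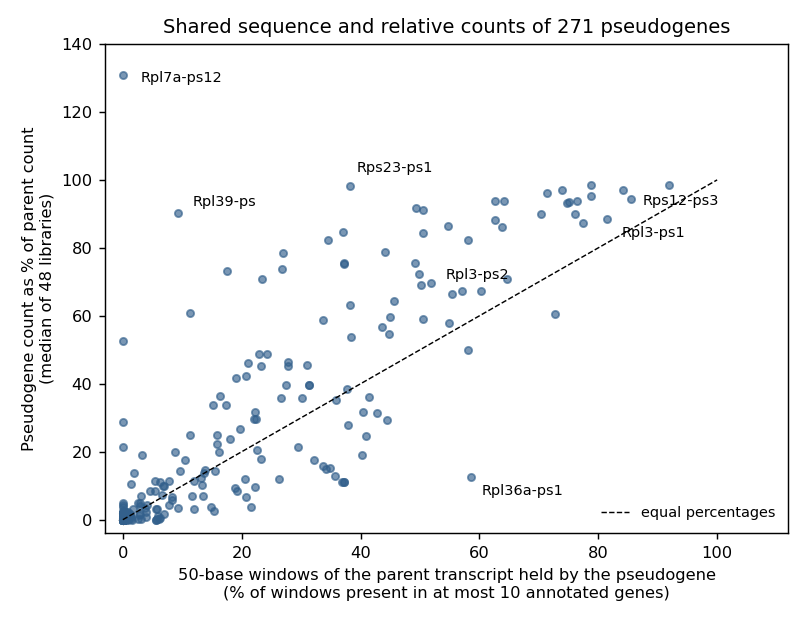
Percentage of the parent count (vertical axis, median of 48 libraries) against the percentage of the parent's 50-base windows held by the pseudogene (horizontal axis), counting windows present in at most 10 annotated genes. The points rise from a median of 0.035% where no window is shared to 88.3% where over 50% are shared, with Rpl7a-ps12 at 130.9% apart from the rest.

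Over their aligned length the Rpl3 pseudogenes follow this order. The 120 bases shown above do not, since Rpl3-ps2 matches Rpl3 there and Rpl3-ps1 differs at 1 base. Rpl3-ps1 aligned to Rpl3 over 1210 bases with 2 mismatches and held 81.4% of its windows, and its count was 88.6% of the Rpl3 count. Rpl3-ps2 had 10 mismatches over 1211 bases, held 51.9% of the windows and stood at 69.7%. Only 4.31% of the windows of Rpl3-ps1 occurred in no other annotated gene, compared with 27.3% of those of Rpl3-ps2. For 34 pseudogenes no window was unique, for 24 every window was, and 15 had no mismatch to the parent over the whole alignment. The ribosomal protein gene sharing the most 20-base stretches was the stem gene for 267 pseudogenes. Rpl36a-ps3 was nearest to Rpl36al instead, and 3 pseudogenes shared no such stretch with any. Rpl36a-ps3 held none of the counted windows of Rpl36a, and its count was 28.9% of the Rpl36a count.

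Some rows could not be told apart at all. In every library the counts of Rpl10-ps3 and Rpl10-ps1 differed by at most 0.363%, those of Rpl35a-ps6 and Rpl35a-ps3 by at most 0.662%, those of Rps13-ps1 and Rps13-ps2 by at most 0.695% and those of Rps19-ps2 and Rps19-ps1 by at most 0.838%. These 4 pairs, defined by differences of at most 1% in every library, are not independent measurements. The sources used here do not give how reads that match several positions were counted. The reads of a parent and of a near-identical pseudogene can therefore not be told apart, and the counts are described as reads assigned to a row and not as transcripts of it.

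The pseudogenes differed in how steady their ratio to the parent count was over libraries. Among the 131 pseudogenes with a median of at least 100 reads, the SD of the log2 ratio over the 48 libraries ranged from 0.0072 to 0.279 with a median of 0.0718. It was smaller than the SD that counting error of independent reads would give for 62 of them, 1 to 1.5 times that SD for 49, and at least 1.5 times for 20. The steadiest ratio was that of Rps23-ps1 (SD 0.0072 against 0.0469 from counting error), followed by Rps6-ps4 (0.0079 against 0.0346) and Rpl3-ps1 (0.0107 against 0.0253). The least steady ratio was that of Rps15a-ps5 (0.279 against 0.0908), and Rps15a-ps2 (0.229 against 0.145) was also among the least steady. They held 26.2% and 4.06% of the Rps15a windows. Over these 131 pseudogenes, Pearson's r with the parent on the log2 CPM scale across libraries ran from 0.349 for Rpl13a-ps1 to 0.999 for Rps23-ps1, with a median of 0.914. The parent was the best correlated gene of the whole table for 28 and among the 10 best for 107.

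Rpl3-ps1 was followed library by library. In 5-Htt+/+ C its count had a lowest, median and highest value of 5311, 7006.5 and 9911 reads, in 5-Htt+/+ SA of 3920, 6010 and 7054, and in 5-Htt+/+ SU of 3936, 5623.5 and 9406. In 5-Htt+/- C the values were 4219, 6495 and 9052 reads, in 5-Htt+/- SA 3702, 7110.5 and 7742, and in 5-Htt+/- SU 4557, 5988 and 10457. The 6 groups overlapped throughout. After scaling for library size the group means were 264 ± 20.7, 260 ± 18.3 and 255 ± 12.9 CPM (SD, n = 8 each) for 5-Htt+/+ C, SA and SU. They were 273 ± 32.5 (n = 7), 250.2 ± 13.9 (n = 8) and 261 ± 21.7 CPM (n = 9) for 5-Htt+/- C, SA and SU. The highest mean and the largest spread were both in 5-Htt+/- C.

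Rpl3 moved with it. Across the 48 libraries the log2 CPM values of Rpl3-ps1 and Rpl3 had a Pearson's r of 0.995 and a Spearman's rho of 0.985 (permutation test, p = 1e-05 for each, the smallest that 100000 resamples can give). Without the 2 libraries farthest from the median of Rpl3, r was 0.994, and within the 6 groups it lay between 0.990 and 0.998. This was the only pair tested in this way. The 2 rows share most of their sequence, and reads matching both could alone give a high r. The p-value therefore cannot show that 2 separate transcripts vary together. The genes of the whole table most like Rpl3-ps1 over the 48 libraries were Rpl3, Gm5879 (r = 0.975) and Rpl3-ps2 (r = 0.960).

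The percentage of the Rpl3 count was nearly the same in every group. For Rpl3-ps1 it was 88.4 ± 0.451%, 88.6 ± 0.714% and 88.8 ± 0.647% in 5-Htt+/+ C, SA and SU (SD, n = 8 each). It was 87.9 ± 0.726% (n = 7), 88.8 ± 0.432% (n = 8) and 88.5 ± 0.702% (n = 9) in 5-Htt+/- C, SA and SU. For Rpl3-ps2 the group means lay between 69.2% and 70.3%. The mean log2 ratio of Rpl3-ps1 to Rpl3 was compared in 6 pairs of groups with exact two-sided permutation tests and Benjamini-Hochberg adjustment over the 6. The largest difference was 0.0143 for 5-Htt+/- SA minus C (p = 0.0168, adjusted p = 0.101, exact permutation test). The other differences were 0.0021 and 0.0063 for 5-Htt+/+ SA and SU minus C, 0.0093 for 5-Htt+/- SU minus C, -0.0042 for 5-Htt+/+ SA minus SU and 0.0049 for 5-Htt+/- SA minus SU. Their adjusted p-values from the exact permutation test ran from 0.397 to 0.678. None passed the threshold of 0.05. Most windows of Rpl3-ps1 also occur in other genes, and its ratio varied less than counting error of independent reads would give. A nearly constant ratio is what shared reads would give, so these tests cannot show whether Rpl3-ps1 itself differed between groups.

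**Figure D3:**
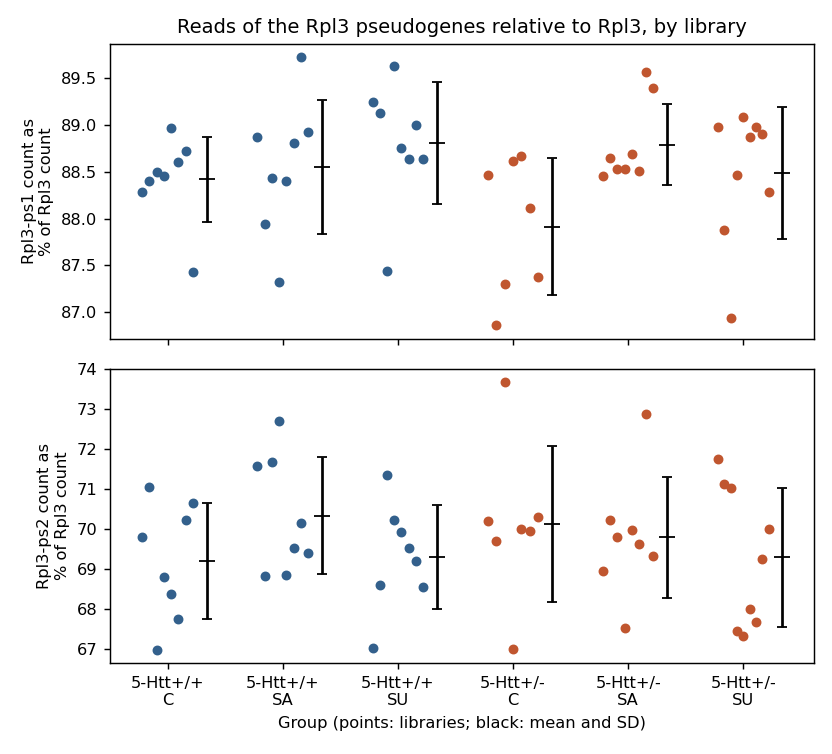
Count of Rpl3-ps1 (upper panel) and Rpl3-ps2 (lower panel) as a percentage of the Rpl3 count in each of the 48 libraries, by group, with the mean and SD in black. All libraries lie between 86.9% and 89.7% for Rpl3-ps1 and between 67.0% and 73.7% for Rpl3-ps2, and the groups overlap.

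Differences between groups were tested for every gene with edgeR's quasi-likelihood test, with Benjamini-Hochberg adjustment over 31208 genes. In the comparison of all 6 groups none of the 205 pseudogenes tested passed an adjusted p of 0.05, when 0.0609% of all genes did, and 8 pseudogenes had an unadjusted p under 0.05 (3.90%, against 7.08% of all genes). The 2 with the smallest p, Rps12-ps6 and Rps12-ps11, were the only pseudogenes to pass the count minimum of 5 reads in 3 libraries through 1 group alone. They did so through 3 libraries of 5-Htt+/+ SA, so that group had to be high for them to be tested, and their p-values carry no weight here. They are 2 of the 8 in this comparison, and also 2 of those counted for the genotype labels, the three-way comparison and 5-Htt+/+ SA against C and against SU. Without them 6 remained across the 6 groups. DESeq2 called none in this comparison.

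No pseudogene differed between the genotype labels at an adjusted p of 0.05, when 0.0224% of all genes did. At an unadjusted p under 0.05 there were 4 higher and 4 lower in the libraries labelled 5-Htt+/- (3.90% in all, against 5.01% of all genes, of which 2.57% higher and 2.44% lower), and DESeq2 called none either. Without Rps12-ps6 and Rps12-ps11 there were 4 higher and 2 lower. The median log2 fold change was 0.03 for the 205 pseudogenes and 0.04 for the 59 parent genes, beside -0.00095 for all genes. Rpl3-ps1 had a log2 fold change of 0.01 (SE 0.03, adjusted p = 0.967) and Rpl3 of 0.01. Rpl21-ps15, a low-count copy of a large subunit protein gene, had -0.35 (SE 0.14, unadjusted p = 0.0145, adjusted p = 0.926), with 1 to 21 reads per library, while Rpl21 had 0.05.

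The three-way comparison took the SA minus SU difference in 5-Htt+/+ and subtracted that in 5-Htt+/-. No pseudogene and no gene passed an adjusted p of 0.05 (0.0% of all genes), and 8 pseudogenes had an unadjusted p under 0.05, 7 with a positive and 1 with a negative value (3.90%, against 3.7% of all genes, 2.21% positive and 1.49% negative). Without the same 2 rows there were 5 positive and 1 negative. DESeq2 called no pseudogene. The median over the pseudogenes was 0.08 on the log2 scale, beside 0.04 for the parents and 0.01 for all genes. Rpl3-ps1 had 0.09 (SE 0.08, unadjusted p = 0.246, adjusted p = 1.0) and Rpl3 had 0.10 (SE 0.08). The study lists Rpl3-ps1 as significant in its three-way interaction, at a far lower expression level than here. Its adjustment covered only the genes nominally significant there. The reason for this difference was not tested. The smallest p-values belonged to Rpl30-ps5 (3.14, SE 1.25, unadjusted p = 0.0142), which had at most 12 reads in any library, and Rps15a-ps5 (0.50, SE 0.20, unadjusted p = 0.0152), whose parent had 0.08. The adjusted p of both was 1.0.

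In the libraries labelled 5-Htt+/+, no pseudogene passed an adjusted p of 0.05 in either comparison (0.0128% of all genes did for SA and 0.0192% for SU), and 3 and 5 had an unadjusted p under 0.05 (1.46% and 2.44%, against 3.07% and 3.37% of all genes). For SA these were 2 higher and 1 lower, beside 1.81% and 1.26% of all genes, and for SU 2 higher and 3 lower, beside 1.59% and 1.78%. The 2 higher for SA were Rps12-ps6 and Rps12-ps11, tested only because SA libraries held their reads, which leaves 1 lower. The count for SU moved to 8 without C replicate 6 and to 1 without SU replicate 6. The share of all genes in those fits is not given here, so the shift cannot be called particular to the pseudogenes. DESeq2 called none. The median log2 fold change of the pseudogenes was -0.02 for SA and -0.05 for SU, beside -0.03 and -0.05 for the parents. Rpl3-ps1 had -0.02 (SE 0.06) and -0.05 (SE 0.06), and Rpl3 had -0.03 and -0.06. The pair with the smallest p for SU was Rpl7a-ps9 (0.89, SE 0.36, 0 to 13 reads per library) and Rpl31-ps15 (-0.29, SE 0.13, adjusted p of both = 0.998), a copy of a large subunit protein gene whose parent had -0.15. These 2 comparisons share the C libraries. The summed level of the 10 choroid plexus markers had a median of 416 CPM in SA, against 49.7 in C and 35.5 in SU, with ranges of 30.5 to 948, 34.0 to 748 and 28.2 to 848 CPM, and its part in these differences was not tested. Between SA and SU, 5 pseudogenes had an unadjusted p under 0.05, 4 higher and 1 lower in SA (2.44%, against 3.9% of all genes, 2.28% higher and 1.62% lower). Without Rps12-ps6 and Rps12-ps11 there were 2 higher and 1 lower. None passed the adjusted threshold (0.0% of all genes) by edgeR or by DESeq2, and Rpl3-ps1 had 0.03 (SE 0.06).

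In the libraries labelled 5-Htt+/-, for SA against C, no pseudogene passed an adjusted p of 0.05 (0.0288% of all genes did), and 10 had an unadjusted p under 0.05, 2 higher and 8 lower (4.88%, against 12.1% of all genes, 5.17% higher and 6.96% lower). That count moved to 25 without SA replicate 7, to 23 without C replicate 4, to 16 without C replicate 5, and to 6 without C replicate 3 or SA replicate 1. For SU against C none passed (0.016% of all genes did), and 21 had an unadjusted p under 0.05, or 33 without C replicate 1. Of the 21, 9 were higher and 12 lower (10.2% in all, against 15.5% of all genes, 6.74% higher and 8.71% lower). The share of all genes in the fits without a library is not given here, so these shifts cannot be called particular to the pseudogenes. DESeq2 called no pseudogene for SA, where it called 25 of the 31208 genes. For SU it called 1 pseudogene, Rps4x-ps (adjusted p = 0.0444), among 243 genes called. Of the 59 parents, 9 had an unadjusted p under 0.05 for SA, all lower, and 12 for SU, 3 higher and 9 lower. Both comparisons share the 7 5-Htt+/- C libraries, which held the highest summed oligodendrocyte marker level (median 2714 CPM, against 2261 in SA and 2183 in SU) and the lowest mitochondrial share of counts (median 4.46%, against 5.04% and 5.37%). All 6 of those markers had reads in every library. The 10 choroid plexus markers, also read in every library, had a median of 286 CPM in SU, against 50.4 in C and 43.6 in SA, with ranges of 30.2 to 934, 31.4 to 682 and 33.4 to 732 CPM. The part of these marker levels in the differences was not tested.

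Rpl3-ps1 and Rpl13-ps6 moved by amounts similar to their parents here, while Rpl21-ps11 did not. Rpl3-ps1 had a log2 fold change of -0.12 for SA (SE 0.06, unadjusted p = 0.0375, adjusted p = 0.398) and Rpl3 of -0.14 (SE 0.06, adjusted p = 0.363). For SU the values were -0.06 (SE 0.06, adjusted p = 0.603) and -0.07. Rpl13-ps6 had -0.15 for SU (SE 0.07) beside -0.17 for Rpl13. Rpl21-ps11 had the smallest p for SA (1.34, SE 0.45, adjusted p = 0.295), with 0 to 11 reads per library, while Rpl21 had -0.09.

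For SU against C the smallest p-values belonged to Rps4x-ps and Rps15a-ps5. Rps4x-ps, a copy of an X-linked small subunit protein gene that lies on chromosome 5, had a lowest, median and highest level of 17.1, 18.2 and 22.6 CPM in 5-Htt+/- C and of 19.7, 21.6 and 25.2 CPM in 5-Htt+/- SU. The ranges overlapped, and the log2 fold change was 0.23 (SE 0.07, unadjusted p = 0.0016, adjusted p = 0.133), with 0.12 for Rps4x (SE 0.06). Leaving out 5-Htt+/- C replicate 4 brought its adjusted p to 0.0489, in a fit that called 432 genes in place of 5. The median level was 20.9, 20.5 and 21.5 CPM in 5-Htt+/+ C, SA and SU and 20.4 CPM in 5-Htt+/- SA, so 5-Htt+/- C was the lowest group. As a share of the Rps4x count it lay between 12.4% and 16.3% over all 48 libraries. Group medians ran from 13.6% in 5-Htt+/- C to 14.7% in both 5-Htt+/- SU and 5-Htt+/+ SU.

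Rps15a-ps5 had 6.87, 11.2 and 15.2 CPM as lowest, median and highest level in 5-Htt+/- C, 8.78, 11.7 and 14.4 CPM in 5-Htt+/- SA, and 11.1, 15.3 and 19.9 CPM in 5-Htt+/- SU. The SU libraries reached the highest levels, and the groups overlapped. The log2 fold change of SU against C was 0.47 (SE 0.15, unadjusted p = 0.00229, adjusted p = 0.147), while Rps15a had 0.09 (SE 0.06). For 5-Htt+/- SA against SU it was -0.37 (SE 0.14, unadjusted p = 0.01, adjusted p = 1.0), while Rps15a had -0.08. Its share of the Rps15a count had a median of 13.1% in 5-Htt+/- SU (11.0% to 18.4%), 11.7% in 5-Htt+/- C (7.40% to 13.0%) and between 11.2% and 12.2% in the other 4 groups. In that comparison 7 pseudogenes had an unadjusted p under 0.05, all lower in SA (3.41%, against 3.79% of all genes, 1.63% higher and 2.16% lower), and none passed the adjusted threshold (0.0% of all genes) by edgeR or by DESeq2. Rpl39-ps had -0.21 (SE 0.08) beside -0.19 for Rpl39, a short protein at the exit tunnel of the large subunit.

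Over the 131 pseudogenes with a median of at least 100 reads, the log2 fold change of the pseudogene and that of its parent differed by a median of 0.013 for the genotype labels and of 0.019 to 0.033 for the other 7 comparisons. Between 108 and 130 of the 131 differed by no more than 0.1. The fold changes were themselves small, with a median size of 0.048 to 0.108 over the 205 pseudogenes tested, so a gap under 0.1 is easily reached. The sign was that of the parent for 99 to 113 of the 131, depending on the comparison. The largest gap was 0.43 in the three-way comparison and 0.38 for 5-Htt+/- SU against C, both for Rps15a-ps5. Pseudogene and parent share libraries and, in many cases, reads, and these gaps are descriptions.

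**Figure D4:**
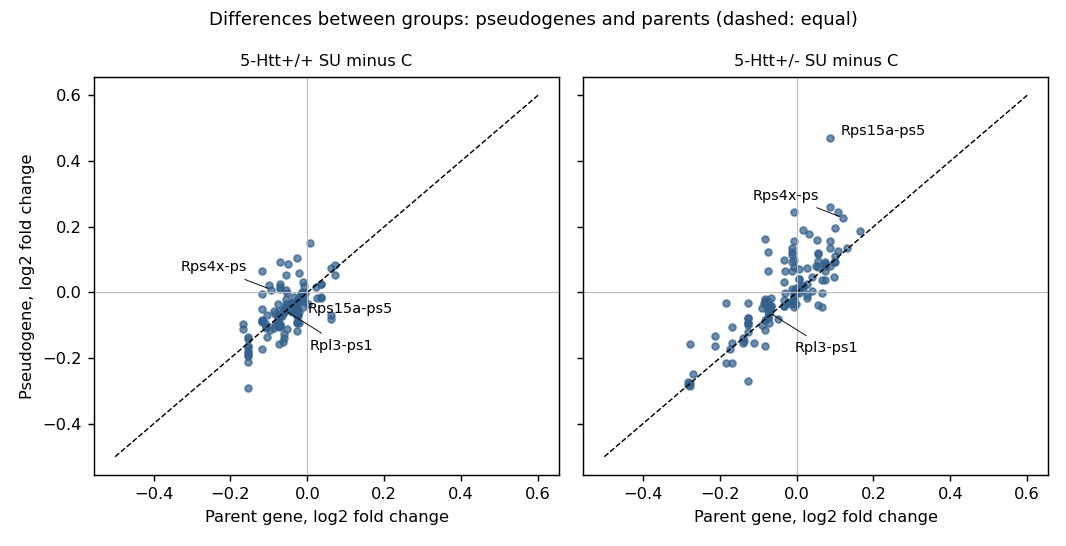
Log2 fold change of each pseudogene (vertical axis) against that of its parent gene (horizontal axis) for SU minus C in 5-Htt+/+ (left) and 5-Htt+/- (right), for pseudogenes with a median of at least 100 reads. The dashed line marks equal values, most points lie close to it, and Rps15a-ps5 lies farthest from it for 5-Htt+/- SU minus C (0.47, with 0.09 for Rps15a).

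The Rps12 stem shows how counts fall within 1 family of copies. It had 23 pseudogenes, 15 of them on the X chromosome, and Rps12 itself had a median of 1380 reads. Rps12-ps3, identical to Rps12 over 450 aligned bases, had a median of 1308.5 reads (706 to 2269) and 94.3% of the Rps12 count. Rps12-ps4 followed with 704.5 reads and 50.03%, and it overlaps exonic positions of Nphs1, and Rps12-ps24 with 633 reads and 45.1%. Rps12-ps9, Rps12-ps10, Rps12-ps19 and Rps12-ps1 had medians of 443, 291.5, 249.5 and 136.5 reads. Rps12-ps5 had 84.5 reads, and Rps12-ps26, with 22 mismatches, had 9. The 4 copies Rps12-ps20 to Rps12-ps23, which lie within 123 to 124 Mb of the X chromosome, had medians of 28.5 to 29 reads. The other 10 copies had a median of 0.

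**Figure D5:**
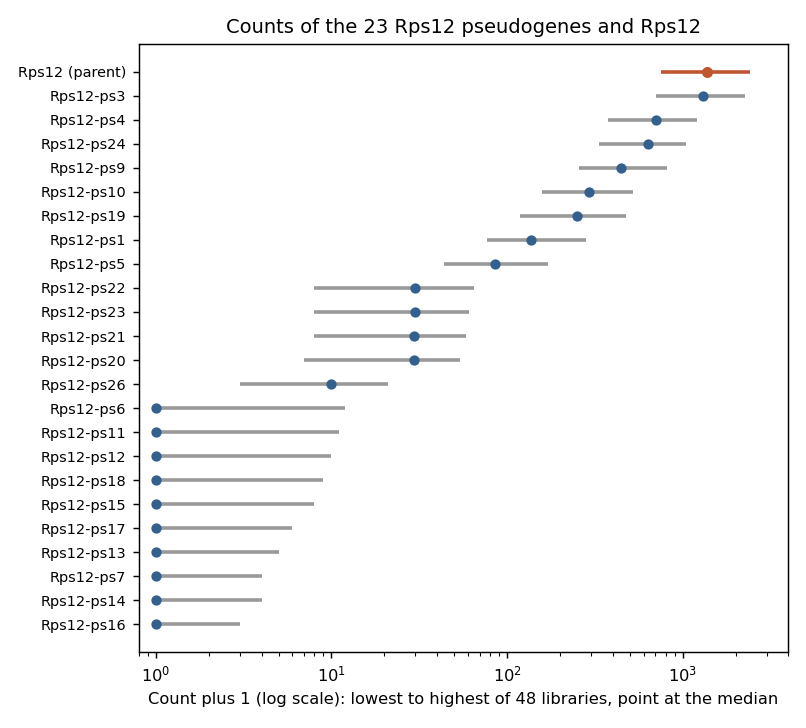
Counts of Rps12 and its 23 pseudogenes (log scale, with 1 added), as the range over 48 libraries with a point at the median. Medians run from 1308.5 reads for Rps12-ps3 to 0 for 10 copies, 9 of which lie between 124 and 126 Mb of the X chromosome.

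Of those 10, 9 lie between 124 and 126 Mb of the X chromosome. They held 28.8% of the Rps12 windows, all present in more than 10 genes, and 97.5% to 98.0% of their aligned bases matched Rps12. Only Rps12-ps6 and Rps12-ps11 passed the count minimum, and they did so through the same 3 libraries. Rps12-ps6 had 0, 0, 0, 0, 11, 6, 0 and 5 reads in 5-Htt+/+ SA replicates 1 to 8, at most 1 read in any library of 5-Htt+/+ C, 5-Htt+/+ SU and 5-Htt+/- C, none in 5-Htt+/- SA and at most 2 in 5-Htt+/- SU. Rps12-ps11 had 10, 5 and 5 reads in the same SA replicates 5, 6 and 8 and none in the other 5. In SA replicate 5, Rps12-ps12, Rps12-ps18, Rps12-ps15 and Rps12-ps17 also had 9, 8, 7 and 5 reads. Since these 3 libraries alone brought both rows into the test, no fold change or p-value is given for them. Rps12 itself had a log2 fold change of -0.10 for 5-Htt+/+ SA against C and of -0.05 against SU. Because the sequences of these copies overlap and 3 libraries hold the reads, the rows are not independent measurements.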

How the data were processed

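Per the labels and the study's methods, the deposited counts are whole reads per gene on the genome build GRCm38.p5, from single-end 50-base reads of 48 hippocampal libraries. Versions are not stated in the submitters' processing notes, which list STAR, HTSeq and DESeq2, whereas the methods describe Salmon. The sources used here do not say how reads with several matching positions, or the strand of a read, were treated in counting.

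A minimum of 5 reads in 3 libraries left 31208 of 48440 genes, whose counts were fitted with edgeR 4.0.16 in R 4.3.3, with upper quartile scaling, 1 mean per group, and the quasi-likelihood test in 9 comparisons. Adjusted p-values of this fit are Benjamini-Hochberg values across the 31208 genes. Fits with other filters were adjusted over the genes that each kept, and the ratio tests over the 6 comparisons. Those of DESeq2 were taken as it gives them, with its default filtering. DESeq2 1.42.0, edgeR's likelihood ratio test, other scalings and filters, and leaving out each library were alternatives. The quasi-likelihood fit was tested on simulated counts. No 2 libraries of a group agreed within sampling noise, the lowest mean chi-square per gene of 169 pairs being 2.42. Log2 CPM for correlations used a prior count of 2.

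Windows and alignments used the GENCODE M21 annotation and transcripts (GRCm38), in which 273 of the 274 pseudogenes were found, 244 at the position given in the count table. Biotypes and positions are those of the count table. Named were Rpl3-ps1, the 10 pseudogenes with the highest median count, the 2 with the smallest p in each comparison, the 3 with the largest and the 3 with the smallest spread of the ratio, the Rps12 stem, their parents, the 3 genes most like Rpl3-ps1 and Slc6a4. Some items that this rule names are not reported here. Other genes, such as Rpl7a-ps12, were named after their values were seen. The pseudogenes and gene lists were chosen with earlier results of these data known.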

Additional observations from a re-analysis of the deposited data

Results flagged for a closer look

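In groups of 7 to 9 libraries, 6 measures were searched for a library standing apart by Dixon's test, and 5 of 36 group values did so, where chance gives about 1 in 20. The share of Rpl3-ps1 in the Rpl3 count was 87.4% in 5-Htt+/+ C replicate 8, below the other libraries of its group, and 87.4% in 5-Htt+/+ SU replicate 3, also below the others. The level of Rpl3-ps1 was 310.5 CPM in 5-Htt+/+ C replicate 7, above the rest of its group. The share of Rps15a-ps5 in the Rps15a count was 17.0% in 5-Htt+/+ SA replicate 1, above the others, and in the same library the share of Rps4x-ps in the Rps4x count was 13.1%, below the others. That library had a total count of 16547182, the lowest of its group.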

How the results depend on the processing

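No pseudogene passed an adjusted p of 0.05 under TMM or relative log expression scaling, without the filter, with the stricter filter or with the replicate block, in any of the 9 comparisons, and the earlier form of edgeR's quasi-likelihood test, an alternative chosen after seeing the data, also called 0. The likelihood ratio test called 1 across the 6 groups, Rps12-ps6. That row was tested only through 3 libraries of 5-Htt+/+ SA, so the call carries no weight. DESeq2 called 1, Rps4x-ps, for 5-Htt+/- SU against C (adjusted p = 0.0444), where it called 243 genes in all. Leaving out a library gave 0 to 1 pseudogenes in these 2 comparisons and 0 in the others. Across the 6 groups this was Rps12-ps6, without 5-Htt+/+ SA replicate 3, 4 or 7, and that row was not tested in 3 of 48 fits. These calls carry no weight, for the same reason. Rps4x-ps passed without 5-Htt+/- C replicate 4, and its adjusted p was otherwise up to 0.374 without a library and up to 0.195 under the other alternatives. The number of pseudogenes with an unadjusted p under 0.05 ranged from 3 to 14 across the 6 groups and from 4 to 18 for the genotype labels, and 14 and 18 were the counts with the replicate block. It ranged from 3 to 14 for the three-way comparison, and from 0 to 5 and 1 to 8 for 5-Htt+/+ SA and SU against C. For 5-Htt+/- SA and SU against C it ran from 6 to 25 and 15 to 33. For SA against SU it ran from 1 to 11 in 5-Htt+/+ and from 4 to 9 in 5-Htt+/-. The share of all genes was not set beside these ranges, so they cannot be called particular to the pseudogenes. Replicate numbers did not pair the libraries. The 115 pairs of equal number from different groups had a median correlation of deviations of -0.00098 (-0.14 to 0.26), and 6 exceeded 0.1. The 844 pairs of unequal number had a median of -0.0020 (-0.27 to 0.33), and 50 exceeded 0.1.

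In place of the ratio of Rpl3-ps1 to Rpl3, the log2 CPM of Rpl3-ps1 gave differences of opposite sign. They were -0.024 and -0.052 for 5-Htt+/+ SA and SU minus C, and -0.116 and -0.057 for 5-Htt+/- SA and SU minus C. SA minus SU gave 0.028 in 5-Htt+/+ and -0.060 in 5-Htt+/-. The ratio sets Rpl3-ps1 against Rpl3, and the log2 CPM sets it against the library. With medians the ratio difference of 5-Htt+/- SA minus SU was -0.00458. Leaving out a library moved the 5-Htt+/+ SA minus C difference between -0.00059 and 0.0050, turning its sign without C replicate 8 and without SA replicate 7, and the 5-Htt+/- SA minus C difference between 0.0114 and 0.0163, which passed the threshold without C replicate 5 (adjusted p = 0.0480, exact permutation test). The log2 fold change of Rpl3-ps1 ranged from -0.0077 to 0.023 for the genotype labels, and was -0.0077 without 5-Htt+/- C replicate 3 and -0.0016 without 5-Htt+/- SU replicate 8. It ranged from -0.044 to 0.014 for 5-Htt+/+ SA against C, and was 0.014 without C replicate 7. The median share of the parent count was 23.0% over the 180 pseudogenes with a median of at least 10 reads and 8.04% per kilobase of annotated length, compared with 6.58% as reported. Counts under 20 reads, as in the X-linked Rps12 copies, limit what can be seen of those rows.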
